A study of Mus musculus with 6 samples.

Results

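DNA replication and cell division rest on sets of genes that cycling cells switch on in turn, and 48 names of that machinery, 24 acting in S phase and 24 in mitosis, were followed in mouse C2C12 myotubes after *Dj1* knockdown. A row of the array was taken when its gene name, in any letter case, was a listed name. This gave 92 of the 45281 probes, covering 47 of the 48 names among 30547 gene names in all. The name without a row is CDK1, since the array lists that gene as CDC2A, which is also among the 48. C2C12 is a mouse myoblast line whose cells fuse into multinucleated myotubes once serum is lowered. RNA was taken after 96 hours (4 days) in differentiation medium with horse serum. Before that, the myoblasts spent 48 hours in growth medium after reverse transfection with scramble or DJ-1 siRNA (60 nM, Lipofectamine RNAiMAX). Labelled complementary RNA made from total RNA was hybridized to 3 Illumina arrays per group, called scramble and *Dj1* knockdown (Scramble and siDJ-1 in the plots). Nothing in the labels says that the 3 replicates of a group came from separate cultures, so p-values measure the spread between these samples. Cultures without siRNA were not analysed here.

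Before division a cell copies its genome. Origins are licensed by loading the MCM helicase, clamp, polymerases and ligase build the new strands, and dedicated enzymes supply thymidylate and other deoxynucleotides. These S-phase genes are classical targets of E2F factors, which the retinoblastoma protein holds in check, whereas mitotic genes are switched on later, largely through promoters with a cell cycle homology region (CHR) and CCAAT boxes. Myoblasts leave the cell cycle for good when they fuse, but in C2C12 cultures some cells stay unfused as reserve cells. In such bulk RNA, fewer cycling cells and less RNA per cell cannot be told apart.

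The targeted gene was lower on every knockdown array. The normalized log2 signal of its probe, PARK7 ILMN_2728754, was 13.59, 13.37 and 13.63 on scramble arrays 1, 2 and 3 and 12.48, 12.49 and 12.15 on knockdown arrays 1, 2 and 3. The groups were thus apart on all 6 arrays, and the knockdown level was 44.7% of the scramble level (log2 fold change -1.16, standard error 0.14, limma adjusted p = 0.00344). Signals throughout are log2 values after background correction and quantile normalization, and a probe was tested when its detection p was under 0.05 on at least 3 of the 6 arrays. Called means a limma p under 0.05 after Benjamini-Hochberg adjustment over all 17890 tested probes. The knockdown arrays had more detected probes (18704, 18857 and 18408 on arrays 1 to 3) than the scramble arrays (16985, 17399 and 18179), and a lower median standard error over beads (7.17, 6.36 and 5.88 against 11.3, 8.30 and 8.66 intensity units). The part of these differences in the results was not tested.

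Calls were counted apart for S-phase and mitotic members. The members were chosen with earlier results of these data known, so their shares are descriptive. Of the 51 S-phase probes 39 were tested, and 9 of them (23.1%), from 8 genes, were called lower after *Dj1* knockdown, where 13.6% of all tested probes were. The S-phase probes called higher numbered 1 (2.56%), against 16.5% of all tested probes. Among the 31 tested of 41 mitotic probes, 1 was called lower and 1 higher, or 3.23% in each direction; the higher calls ranged from 0 to 6 over the alternatives, with 0 whichever of the 6 arrays was left out, and the lower calls were 0 without knockdown replicate 1 or 3. The median log2 fold change was -0.15 over the tested S-phase probes, 0.14 over the tested mitotic probes and 0.05 over all tested probes. The S-phase median was -0.05 without scramble replicate 2, -0.10 without knockdown replicate 1, -0.24 with array weights and -0.35 with averaging per gene, and the mitotic median 0.07 without scramble replicate 1. Whether called or not, 11 S-phase probes had all knockdown arrays below all scramble arrays (28.2%, against 22% of all tested probes) and 2 had them above (5.13%, against 26.5%), while 3 mitotic probes lay below and 8 above (9.68% and 25.8%). The mitotic share above is thus close to that of the whole array. The whole-array calls, 2430 lower and 2957 higher, were 1172 and 1387 without knockdown replicate 1 and 1261 and 1451 without knockdown replicate 3. Of the 92 probes 22 were left untested as too dim, among them every probe of POLA1, CCNB2, BUB1 and KIF20A, and no tested member had been detected in 1 group only.

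**Figure D1:**
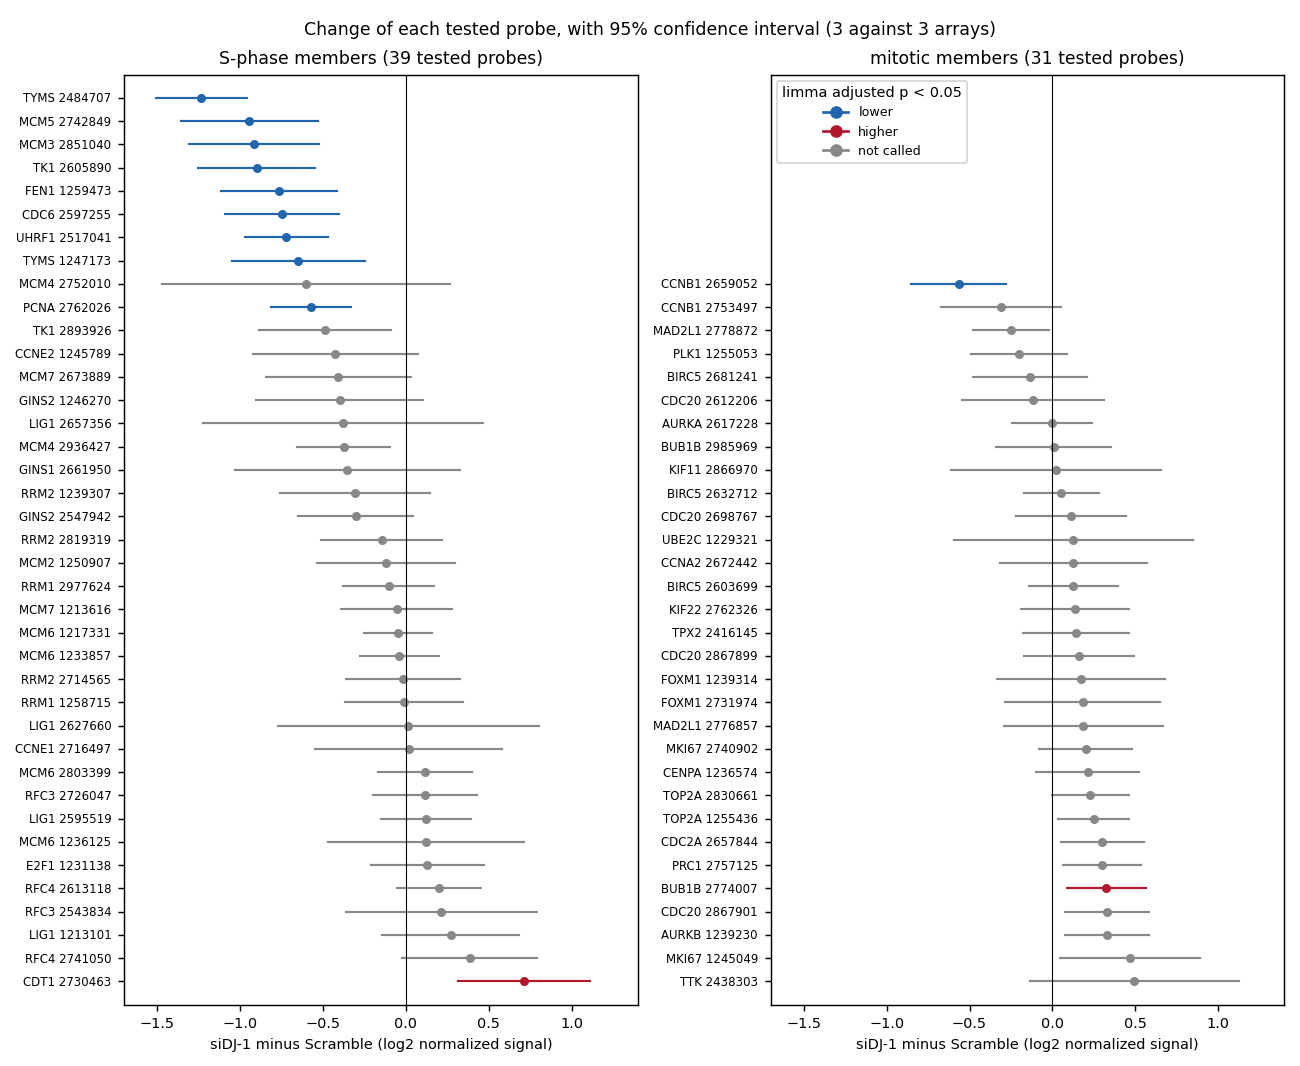
Log2 fold change (*Dj1* knockdown minus scramble, in log2 normalized signal) of each of the 39 tested S-phase and 31 tested mitotic probes, with its 95% confidence interval from limma, labelled by gene and probe number. Blue probes were called lower and red ones higher; the blue S-phase probes lie between -1.23 and -0.57, and most mitotic probes sit between 0 and 0.50.

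**Figure D2:**
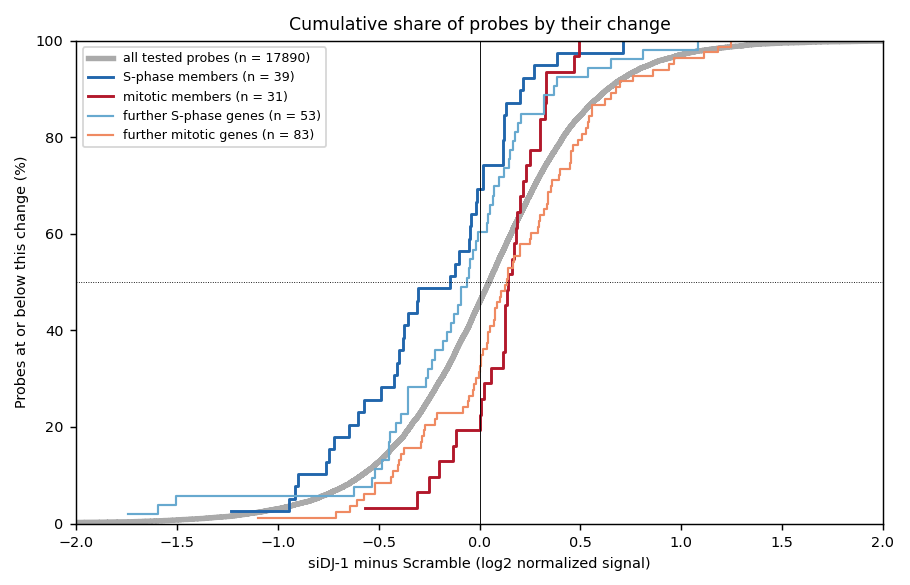
Share of tested probes (percent) at or below a given log2 fold change, for all 17890 tested probes, for the S-phase and mitotic members and for the further genes of both phases. The S-phase line runs left of the grey line of all probes over most of its range, and the mitotic line starts to its right and ends before it at 0.50.

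Promoter elements of both phases were searched in the members. In the RefSeq table of mouse promoters (GRCm38.p6, 250 bases before to 50 after the start), 38 of the 47 genes have an entry, and AURKB, CCNA2, CCNE2, FOXM1, GINS1, GINS2, KIF20A, MCM4 and TPX2 do not. On either strand, the E2F element was searched as TTTCCCGC, TTTGGCGC, TTTCGCGC or TTTGCCGC, the CHR as TTTGAA and the CCAAT box as CCAAT. An E2F element was found in 10 of 20 S-phase genes (50%) and in 1 of 18 mitotic genes (5.56%), against 2.6% of the 27025 genes of the table. A CHR was found in 14 of 18 mitotic genes (77.8%) and 2 of 20 S-phase genes (10%), against 20.2% of all genes. The CCAAT box was in 16 of the 18 mitotic genes (88.9%) and 11 of the 20 S-phase genes (55%), against 41.1%. By promoter, since some genes have several starts, the E2F element was in 40% of 25 S-phase promoters against 2.26% of all 32851, and the CHR in 78.9% of 19 mitotic promoters against 17.9%. Of the 8 S-phase genes called lower, 4 held an E2F element (50%), the same share as among all S-phase members. The promoters of TYMS and CCNB1, with the largest called change of their phase, and of MCM5 and CDT1, which moved in opposite directions, are printed 5′ to 3′ with all motif matches in capitals.
Tyms, chr5:30073576-30073875, minus strand: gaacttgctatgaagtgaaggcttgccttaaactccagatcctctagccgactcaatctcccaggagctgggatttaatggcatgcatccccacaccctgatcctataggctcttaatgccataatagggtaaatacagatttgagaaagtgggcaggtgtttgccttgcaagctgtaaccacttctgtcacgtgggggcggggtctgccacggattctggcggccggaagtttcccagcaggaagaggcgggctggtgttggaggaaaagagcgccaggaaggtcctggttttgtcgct
Mcm5, chr8:75109259-75109558, plus strand: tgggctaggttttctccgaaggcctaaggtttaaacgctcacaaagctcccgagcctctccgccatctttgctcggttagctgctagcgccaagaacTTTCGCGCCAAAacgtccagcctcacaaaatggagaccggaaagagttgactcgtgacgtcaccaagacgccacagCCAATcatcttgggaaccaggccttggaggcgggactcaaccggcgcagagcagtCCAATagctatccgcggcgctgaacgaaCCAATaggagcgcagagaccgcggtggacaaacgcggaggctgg
Cdt1, chr8:122567765-122568064, plus strand: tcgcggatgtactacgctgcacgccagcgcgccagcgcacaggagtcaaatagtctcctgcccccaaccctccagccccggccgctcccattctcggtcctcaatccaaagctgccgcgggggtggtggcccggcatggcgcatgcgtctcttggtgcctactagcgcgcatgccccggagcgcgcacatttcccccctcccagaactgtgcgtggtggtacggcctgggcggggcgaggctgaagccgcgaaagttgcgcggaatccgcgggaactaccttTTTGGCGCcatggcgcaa
Ccnb1, chr13:100786437-100786736, minus strand: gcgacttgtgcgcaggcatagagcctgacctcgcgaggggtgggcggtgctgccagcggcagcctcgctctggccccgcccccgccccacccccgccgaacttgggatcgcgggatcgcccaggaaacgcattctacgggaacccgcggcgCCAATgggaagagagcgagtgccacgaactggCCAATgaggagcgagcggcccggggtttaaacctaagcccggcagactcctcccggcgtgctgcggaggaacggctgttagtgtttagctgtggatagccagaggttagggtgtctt
The Mcm5 promoter holds a pair of E2F elements that overlap on opposite strands, starting 153 and 149 bases before the start, and 3 CCAAT boxes, while that of Cdt1 holds 1 E2F element, 33 bases after the start. Ccnb1 has 2 CCAAT boxes and no CHR match, and none of these letters occurs in the Tyms window. A match of letters is a description and not a site of binding.

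**Figure D3:**
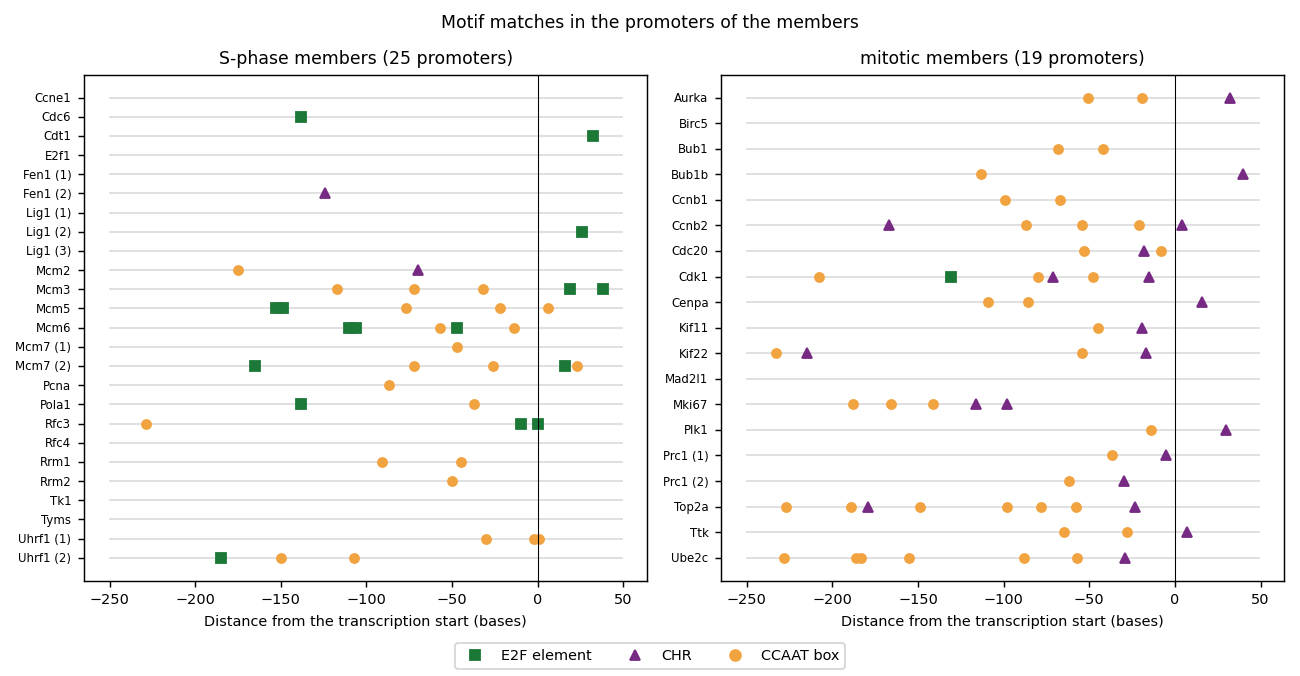
Positions of the motif matches, in bases from the transcription start, in the 25 promoters of S-phase members and the 19 promoters of mitotic members (a gene with several starts has several lines). E2F elements (green squares) lie in S-phase promoters except that of Cdk1, and CHR matches (purple triangles) lie in 14 of the 18 mitotic genes.

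Origin licensing comes before S phase. Of the 16 tested probes of the licensing and helicase genes, 3 (18.8%) were called lower, for MCM5, MCM3 and CDC6, and 1 (6.25%) higher, for CDT1, against 13.6% and 16.5% of all tested probes. MCM5, a subunit of the ring-shaped MCM helicase, had 9.35, 9.94 and 9.78 on scramble arrays 1 to 3 and 8.59, 8.87 and 8.79 on knockdown arrays 1 to 3. The lowest scramble array was above the highest knockdown array, and the fall was 0.94 on the log2 scale, to 52.0% of the scramble level (log2 fold change -0.94, standard error 0.17, limma adjusted p = 0.0102). MCM3, another subunit, was dim, with 5.99, 6.39 and 6.30 on scramble and 5.30, 5.55 and 5.08 on knockdown arrays. Its groups did not overlap either (log2 fold change -0.92, standard error 0.16, limma adjusted p = 0.00947), but it was detected on 3 scramble arrays and 1 knockdown array, and its change was -0.30 and -0.28 in the settings without background correction, still called. CDC6, the loader that brings the helicase to the origin, went from 7.51, 7.95 and 7.75 to 7.10, 7.05 and 6.82. No knockdown array reached the scramble range (log2 fold change -0.75, standard error 0.15, limma adjusted p = 0.0120), and without background correction the change was -0.42 with either scaling, also called.

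CDT1, the partner of CDC6 in helicase loading, went the other way. Its signal was 9.14, 9.62 and 9.27 on scramble and 10.09, 9.84 and 10.25 on knockdown arrays 1 to 3. Every knockdown array was above every scramble array, and the level rose 1.64-fold (log2 fold change 0.71, standard error 0.17, limma adjusted p = 0.0216). This call was lost without scramble replicate 3 (limma adjusted p = 0.0591), without knockdown replicate 1 (0.0735) and without knockdown replicate 3 (0.0759), with a log2 fold change from 0.61 to 0.86 over the alternatives. The other helicase subunits gave no call. MCM6 ILMN_1217331 had 10.89, 10.89 and 10.86 on scramble and 10.86, 10.82 and 10.81 on knockdown arrays, a log2 fold change of -0.05 with a 95% confidence interval from -0.26 to 0.16. The spread within the groups is small here and the groups overlap, and the 3 other MCM6 probes had log2 fold changes between -0.04 and 0.12. MCM4 ILMN_2936427 had 10.66, 10.99 and 10.90 on scramble and 10.45, 10.53 and 10.44 on knockdown arrays. These groups did not overlap, yet the change just missed the threshold (log2 fold change -0.38, limma adjusted p = 0.0519), and it was called in 6 of 14 alternatives. The remaining probes of MCM2, MCM4, MCM7, GINS1 and GINS2, the last being parts of the helicase's activating complex, had log2 fold changes between -0.60 and -0.05 and were not called.

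At the replication fork, 3 of 11 tested probes (27.3%, against 13.6% of all tested probes) were called lower, for FEN1, UHRF1 and PCNA. By limma 0 were called higher, against 16.5%, and 0 were higher at an unadjusted p under 0.05. FEN1, the nuclease that trims the flaps of lagging-strand fragments, had 9.82, 10.17 and 10.12 on scramble and 9.31, 9.44 and 9.07 on knockdown arrays. The groups were separate, and the knockdown level was 58.9% of the scramble level (log2 fold change -0.76, standard error 0.15, limma adjusted p = 0.0117). UHRF1, which guides maintenance methylation to newly copied DNA, had 10.63, 10.58 and 10.62 on scramble and 9.76, 10.03 and 9.87 on knockdown arrays. The scramble arrays lay close together and far above the knockdown arrays (log2 fold change -0.72, standard error 0.11, limma adjusted p = 0.00537). PCNA, the sliding clamp, went from 9.22, 9.05 and 9.26 to 8.61, 8.65 and 8.56. Here too no knockdown array reached the lowest scramble array (log2 fold change -0.57, standard error 0.10, limma adjusted p = 0.00916). Not all fork genes followed. RFC4, a subunit of the clamp loader, had 9.35, 9.26 and 9.20 on scramble and 9.37, 9.60 and 9.44 on knockdown arrays on ILMN_2613118. All knockdown values were above, with a log2 fold change of 0.20 that was not called (limma adjusted p = 0.196). The 7 other tested probes of RFC4, RFC3 and the ligase LIG1 had log2 fold changes between -0.38 and 0.38 and no call.

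Thymidylate supply showed the largest change of any member. All 9 tested probes of the deoxynucleotide group had log2 fold changes below 0, as had 8194 of all 17890 tested probes, and 3 of the 9 (33.3%, against 13.6%), for TYMS and TK1, were called lower. TYMS, thymidylate synthase, makes the thymine nucleotide anew. On ILMN_2484707 it had 9.75, 9.69 and 9.79 on scramble and 8.47, 8.70 and 8.36 on knockdown arrays. The 3 scramble arrays differed little, every knockdown array was about 1 log2 unit or more below them, and the level was 42.5% of that in scramble myotubes (log2 fold change -1.23, standard error 0.12, 95% confidence interval -1.51 to -0.96, limma adjusted p = 0.00281). Before normalization its deposited intensity was 1025.0, 998.0 and 986.5 on scramble and 480.5, 587.4 and 403.0 on knockdown arrays. A further TYMS probe, ILMN_1247173, was also called lower (log2 fold change -0.65, standard error 0.17, limma adjusted p = 0.0296), with 7.22, 7.60 and 7.86 on scramble and 6.95, 6.95 and 6.85 on knockdown arrays. That call was lost without scramble replicate 2 (limma adjusted p = 0.0764) or 3 (0.0597) and without knockdown replicate 1 (0.0820), 2 (0.0687) or 3 (0.0967), and its log2 fold change ranged from -0.82 to -0.35 over the alternatives. The 3 other TYMS probes were too dim to test. TK1, thymidine kinase, which salvages thymidine, had 9.49, 9.67 and 9.72 on scramble and 8.52, 8.99 and 8.67 on knockdown arrays on ILMN_2605890. All knockdown arrays were lower, replicate 2 the least so, and the level was 53.6% of the scramble level (log2 fold change -0.90, standard error 0.15, limma adjusted p = 0.00736). Its probe ILMN_2893926 had -0.49 and was not called (limma adjusted p = 0.0684), although the groups did not overlap. Ribonucleotide reductase, which supplies all 4 deoxynucleotides, gave no call on 5 tested probes. RRM1 ILMN_2977624 had 9.26, 9.38 and 9.57 on scramble and 9.28, 9.24 and 9.37 on knockdown arrays, so the groups overlapped, and the RRM1 and RRM2 probes had log2 fold changes from -0.31 to -0.01.

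**Figure D4:**
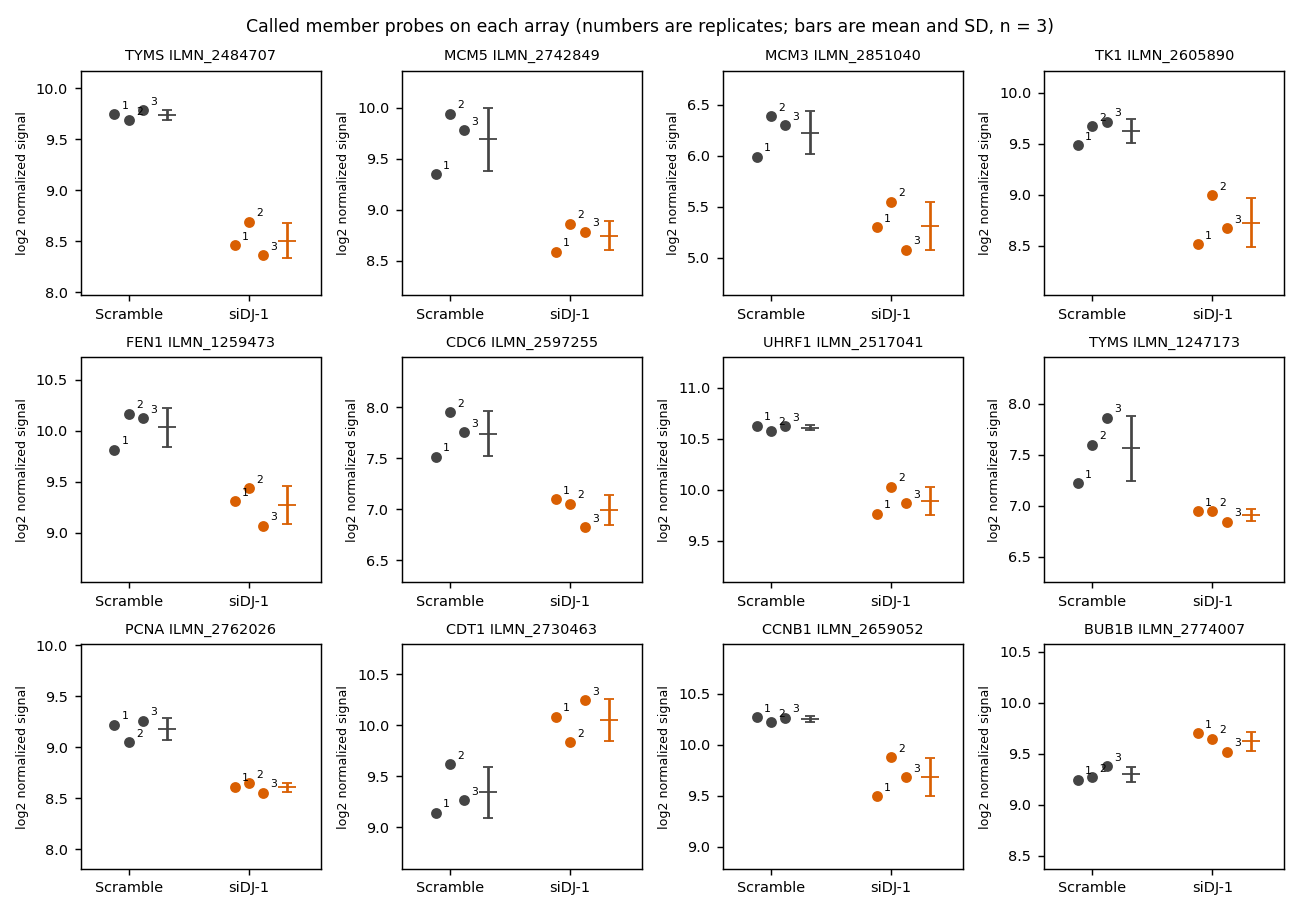
Log2 normalized signal of the 12 called member probes on each of the 3 scramble and 3 *Dj1* knockdown arrays (siDJ-1), with replicate numbers, means and SD (n = 3); each panel has its own axis of equal length. In every panel the groups are separate, with CDT1 and BUB1B higher and the 10 other probes lower after knockdown.

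Regulators of S-phase entry had 3 tested probes. E2F1, an activating E2F factor, had 9.91, 9.84 and 10.27 on scramble and 10.16, 10.00 and 10.25 on knockdown arrays, and its groups overlapped (log2 fold change 0.13, limma adjusted p = 0.531). The E-type cyclins start S phase with CDK2. CCNE1 had 6.34, 7.31 and 6.65 on scramble and 6.81, 6.75 and 6.79 on knockdown arrays, with the highest and the lowest value both in the scramble group (log2 fold change 0.02). CCNE2 had 6.35, 5.91 and 5.82 on scramble and 5.27, 5.63 and 5.91 on knockdown arrays, again with overlap (log2 fold change -0.42, limma adjusted p = 0.168). These 3 probes gave 0 calls by limma, against 13.6% of all tested probes lower and 16.5% higher, and 0 at an unadjusted p under 0.05.

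Another activating E2F factor lies outside the 48 names. The lists used from here on were also chosen with earlier results of these data known. Their shares beside those of all tested probes are therefore descriptive and no independent support. In a list of 45 further S-phase genes, 53 probes were tested, 9 (17%) were called lower and 2 (3.77%) higher, against 13.6% and 16.5% of all tested probes, and the median log2 fold change was -0.06. E2F2 gave 3 of the 9. On ILMN_2836137 it had 10.60, 11.22 and 10.85 on scramble and 9.06, 9.31 and 9.07 on knockdown arrays. The gap between the groups was over 1 log2 unit (log2 fold change -1.74, standard error 0.17, limma adjusted p = 0.00295), and the 2 other probes gave -1.59 and -1.51. All 3 E2F2 probes were called in all 14 alternatives, with ILMN_2624477 at -1.61 to -0.71. The other genes called lower were POLA2, a subunit of DNA polymerase alpha (-0.62), DTYMK, the kinase that acts on the product of TYMS and TK1 (-0.53, -0.48 and -0.42 on 3 probes), TIMELESS, a fork protection factor (-0.52, from -0.57 to -0.33 over the alternatives), and the origin recognition subunit Orc6, listed as ORC6L (-0.45). These 4 were singled out after their values were seen. Higher were POLD2 (1.08) and POLD1 (0.54), a small and the catalytic subunit of DNA polymerase delta, both called in all 14 alternatives. POLA2 lost its call without knockdown replicate 1 (limma adjusted p = 0.0601) and TIMELESS without knockdown replicate 1 (0.0567) or 3 (0.0504). ORC6L lost it without scramble replicates 2 and 3 (limma adjusted p = 0.0547 and 0.0527) and knockdown replicates 1, 2 and 3 (0.0759, 0.0511 and 0.0548). The same 5 omissions ended the calls of DTYMK at ILMN_2485788 (limma adjusted p = 0.0608, 0.0597, 0.0769, 0.0582 and 0.0667) and ILMN_2971845 (0.123, 0.124, 0.140, 0.0766 and 0.143), and none ended that of its probe ILMN_2485787.

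Of 6 tested probes of mitotic cyclins, CDK1 and their regulators, 1 was called lower (16.7%, against 13.6% of all tested probes). By limma 0 were called higher, against 16.5%, with 1 higher at an unadjusted p under 0.05. The call was for CCNB1, cyclin B1, which activates CDK1 at mitotic entry. On ILMN_2659052 it had 10.27, 10.22 and 10.26 on scramble and 9.50, 9.87 and 9.68 on knockdown arrays. The scramble arrays were nearly equal and all above the knockdown arrays, whose level was 67.6% of theirs (log2 fold change -0.57, standard error 0.12, limma adjusted p = 0.0161). The call was lost without knockdown replicate 1 (log2 fold change -0.47, limma adjusted p = 0.0584) or knockdown replicate 3 (-0.56, adjusted p = 0.0564). The other CCNB1 probe, ILMN_2753497, had overlapping groups and was not called (log2 fold change -0.31, limma adjusted p = 0.166). CDC2A, the kinase CDK1 itself, had 10.51, 10.50 and 10.31 on scramble and 10.67, 10.83 and 10.72 on knockdown arrays on ILMN_2657844. Each knockdown value was above each scramble value, without passing the threshold (log2 fold change 0.30, limma adjusted p = 0.0713), and the probe was called in 5 of 14 alternatives. FOXM1, a transcription factor of mitotic genes, had 7.23, 7.31 and 7.84 on scramble and 7.39, 7.80 and 7.75 on knockdown arrays on ILMN_2731974, with overlap (log2 fold change 0.18). CCNA2 and the other FOXM1 probe gave 0.13 and 0.17.

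Among mitotic kinases and checkpoint genes, 1 of 8 tested probes was called higher (12.5%, against 16.5% of all tested probes). By limma 0 were called lower, against 13.6%, and at an unadjusted p under 0.05 there were 2 higher and 1 lower. BUB1B, the checkpoint protein BubR1 that delays anaphase until chromosomes are attached, had 9.25, 9.27 and 9.38 on scramble and 9.70, 9.65 and 9.52 on knockdown arrays on ILMN_2774007. The groups were apart by little, and the rise was 1.25-fold (log2 fold change 0.33, standard error 0.10, limma adjusted p = 0.0493). It was lost with any of the 6 arrays left out, at an adjusted p of 0.0944, 0.114 and 0.068 without scramble replicates 1, 2 and 3 and 0.167, 0.117 and 0.0728 without knockdown replicates 1, 2 and 3, and the other BUB1B probe had a log2 fold change of 0.01. MAD2L1, its partner in the checkpoint, had 9.79, 9.80 and 9.93 on scramble and 9.63, 9.62 and 9.51 on knockdown arrays on ILMN_2778872. All knockdown arrays were lower, but the change was not called (log2 fold change -0.25, limma adjusted p = 0.0955), and the other MAD2L1 probe gave 0.19. PLK1, a kinase of mitotic entry and spindle assembly, had 9.29, 9.53 and 9.16 on scramble and 9.16, 9.15 and 9.07 on knockdown arrays. The lowest scramble value and the highest knockdown value are equal at 2 decimals (log2 fold change -0.20, limma adjusted p = 0.251). AURKB, the kinase of the chromosomal passenger complex, had a log2 fold change of 0.33 with groups that did not overlap (limma adjusted p = 0.055) and was called in 6 of 14 alternatives. AURKA had 0.00 and TTK 0.50, neither of them called.

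The anaphase-promoting complex and the chromosome and spindle genes gave 0 calls by limma on 5 and 12 tested probes, with 1 and 3 probes higher and 0 lower at an unadjusted p under 0.05, where 16.5% of all tested probes were called higher and 13.6% lower. CDC20, the activator of that complex, had 9.84, 10.00 and 9.97 on scramble and 10.01, 10.36 and 9.93 on knockdown arrays on ILMN_2867899, and UBE2C, its ubiquitin-conjugating enzyme, had 6.34, 5.23 and 6.01 against 5.64, 6.27 and 6.04. Both overlapped between the groups, with log2 fold changes of 0.16 and 0.13, and the other CDC20 probes ranged from -0.12 to 0.33. The highest of these, ILMN_2867901, had all knockdown arrays above all scramble arrays. It just missed the threshold (limma adjusted p = 0.0569) and was called in 2 of 14 alternatives. CENPA, the histone that marks centromeres, had 12.20, 12.27 and 12.03 on scramble and 12.33, 12.58 and 12.22 on knockdown arrays (log2 fold change 0.21, limma adjusted p = 0.258). PRC1, which bundles the midzone microtubules, had 11.42, 11.62 and 11.49 on scramble and 11.85, 11.82 and 11.77 on knockdown arrays. Its groups did not overlap (log2 fold change 0.30, limma adjusted p = 0.0599), and it was called in 6 of 14 alternatives. BIRC5, survivin, had 10.38, 10.42 and 10.36 against 10.41, 10.54 and 10.38 on ILMN_2632712 (log2 fold change 0.05). Its probes ILMN_2603699 and ILMN_2681241 gave 0.13 and -0.13. The proliferation marker MKI67 gave 0.20 and 0.47 and the topoisomerase TOP2A 0.23 and 0.25 on their tested probes. KIF11 gave 0.02, KIF22 0.14 and TPX2 0.14. Thus 11 of the 12 probes were above 0, as were 9696 of all 17890, and none was called. On 4 of the 12, all knockdown arrays lay above all scramble arrays (33.3%, against 26.5% of all tested probes). These were the PRC1 probe, the tested TOP2A probes and MKI67 ILMN_1245049. On 0 of the 12 they lay below, against 22%.

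Further mitotic genes lie beyond the 48 names. Of 83 tested probes for 55 of 71 genes, 17 (20.5%) were called higher, against 16.5% of all tested probes, and 6 (7.23%) lower, against 13.6%, with a median log2 fold change of 0.14. CKAP2, a spindle-associated protein, had 8.23, 8.55 and 8.38 on scramble and 9.70, 9.70 and 9.52 on knockdown arrays. Its groups were nearly 1 log2 unit apart (log2 fold change 1.25, standard error 0.12, limma adjusted p = 0.00284). The condensin subunits NCAPG and SMC4, which compact mitotic chromosomes, gave 1.18 and 1.12 (limma adjusted p = 0.0145 and 0.00284). Over the alternatives NCAPG ranged from 0.41 to 1.38 and SMC4 from 0.61 to 1.18. NCAPG was detected on 1 scramble array, so the size of its change is uncertain, and its call was lost without knockdown replicate 1 (limma adjusted p = 0.0552) or 3 (0.0574). Lower were MELK, a kinase, and the checkpoint protein BUB3 (-0.64, from -0.73 to -0.32 over the alternatives). Also lower was the SKA complex subunit listed as 1110001A07RIK, now Ska2 (-0.71, from -0.77 to -0.42). MELK was detected on 3 scramble and 0 knockdown arrays. It passed the detection filter only through the group where it was higher, so its call carries no separate weight. Of the 83 tested probes 3, MELK among them, had been detected in 1 group only. With the lowest detected signal of each knockdown array as the limit, its fall was 1.76-fold or more on the background-corrected scale of the reported fit. Over the alternatives its log2 fold change ran from -1.28 to -0.34, the smaller falls without background correction, so the size is uncertain. Over both lists of further genes, 15 probes were called lower and 19 higher; without knockdown replicate 1 these were 7 and 7, and without knockdown replicates 2 and 3 the lower calls were 9 and 8.

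Genes that gate entry into the cycle were a further list. Of 27 tested probes, 7 (25.9%), from 5 genes, were called higher and 2 (7.41%) lower, against 16.5% and 13.6% of all tested probes, with a median log2 fold change of 0.02. CDKN2C, the CDK4 and CDK6 inhibitor p18, gave 1.72 on ILMN_1215651 and 0.79 on ILMN_1228366 (limma adjusted p = 0.00309 and 0.00483), the former detected on 2 of the 3 scramble arrays and at 0.73 to 1.89 over the alternatives. CDKN1C, the inhibitor p57, had 10.17, 9.98 and 9.85 on scramble and 10.75, 10.94 and 10.80 on knockdown arrays. Every knockdown array was higher (log2 fold change 0.83, standard error 0.12, limma adjusted p = 0.00529). CDKN2D, the inhibitor p19 (0.78), RB1, the retinoblastoma gene (0.69 and 0.53), and CDK2 (0.38), singled out after their values were seen, were the other genes called higher. The inhibitor gene CDKN1A was not called, with -0.24, -0.16 and -0.24 on its probes and groups that did not overlap. In the list, 9 probes had all knockdown arrays below all scramble arrays (33.3%, against 22% of all tested probes) and 10 above (37%, against 26.5%). RB1 ILMN_2679619 lost its call without knockdown replicate 1 (limma adjusted p = 0.0564) or 3 (0.0641), and CDK2 lost it without scramble replicate 1 (0.0580) or 3 (0.0741) and without knockdown replicate 1 (0.103), 2 (0.0552) or 3 (0.0914). CDK2 was also not called with the replicate number as a block (limma adjusted p = 0.0714) or with no filter on dim probes (0.0679). CCND1, cyclin D1, was called lower on ILMN_1221503 and ILMN_2601471 (log2 fold change -0.51 on each, limma adjusted p = 0.0345 and 0.0484), but 0 probes of the list were called lower without scramble replicate 1, 2 or 3 or without knockdown replicate 1 or 3.

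Markers of the myotube state were mostly lower after knockdown. Of 35 tested myotube marker probes, 20 (57.1%), from 13 genes, were called lower, against 13.6% of all tested probes, and 0 higher, against 16.5%, by limma and also at an unadjusted p under 0.05. Without knockdown replicate 1, 12 were called lower. The median signal over the list was 11.92, 11.86 and 11.89 on scramble and 11.15, 11.32 and 10.89 on knockdown arrays, and all 22 genes of the list had a tested probe. MYH4, a fast myosin heavy chain, was called lower (-3.72, detected on 3 scramble and 1 knockdown array, from -3.98 to -1.90 over the alternatives), as was MEF2C, a muscle transcription factor, on its probes ILMN_1214950 and ILMN_2887992 (-2.61 and -2.48, the former -2.74 to -1.72 over the alternatives). Markers of undifferentiated and reserve myoblasts gave 3 calls lower, for HEYL (-1.73), ID3 (-1.40) and ID1 (-0.57), and 2 higher, for VCAM1 (0.73) and CD34 (0.54), of 10 tested probes (30% and 20%, against 13.6% and 16.5%). Over the alternatives HEYL ranged from -1.95 to -0.83, ID3 from -1.59 to -0.70 and VCAM1 from 0.31 to 0.84. The probes of PAX7 and MYF5 were not detected often enough to be tested. Without scramble replicate 2 or 3 or knockdown replicate 1 or 2, CD34 was not called (limma adjusted p = 0.0577, 0.0651, 0.0606 and 0.0550) and the higher calls numbered 1. The same held with no filter on dim probes (limma adjusted p = 0.0532 for CD34). ID1 was not called without scramble replicate 2 (limma adjusted p = 0.0709) or 3 (0.0712) or without knockdown replicate 1 (0.0699), 2 (0.0619) or 3 (0.0888). Its call was also lost with the replicate number as a block (limma adjusted p = 0.0536) and with no filter on dim probes (0.0578). Of 26 probes of endothelial and blood markers only 1, for CD68, was tested, and it was not called (log2 fold change 0.52, limma adjusted p = 0.169, from 0.19 to 0.83 over the alternatives). Without scramble replicate 2 CD68 was called higher (0.83, limma adjusted p = 0.0148). The part of the degree of differentiation in the changes of the S-phase and mitotic genes was not tested.

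**Figure D5:**
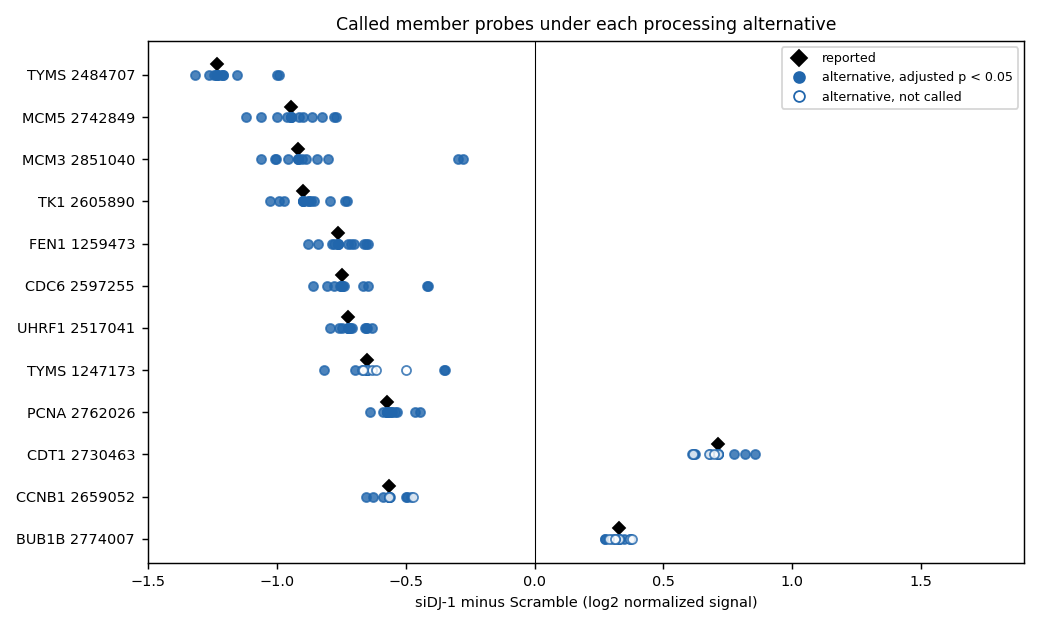
Log2 fold change of the 12 called member probes as reported (black diamonds) and under each processing alternative (circles, filled where the adjusted p was under 0.05). The 8 probes of TYMS (ILMN_2484707), MCM5, MCM3, TK1, FEN1, CDC6, UHRF1 and PCNA stay filled throughout, and all circles keep the side of 0 of the reported value.

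Across the processing alternatives, 8 of the 12 called probes were called in every one in which they were tested, all of them S-phase probes that were lower after knockdown. The other 4, for CDT1, CCNB1, BUB1B and the probe TYMS ILMN_1247173, lost their calls in some, by single arrays left out as given above. The replicate number as a block also ended those of CDT1, BUB1B and the TYMS probe (limma adjusted p = 0.055, 0.106 and 0.0537), and the fit without a filter on dim probes those of BUB1B and the TYMS probe (0.112 and 0.0647).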

How the data were processed

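Arrays of 3 scramble and 3 *Dj1* knockdown samples were compared. The authors scanned Illumina mouse bead arrays and, in GenomeStudio, made the deposited mean bead intensity of 45281 probes, without normalization or background correction, and its detection p-value. Standard errors over beads and bead numbers were also deposited. In R 4.3.3, limma 3.58.1 corrected the intensity by normexp with negative controls estimated through the detection p-value (offset 16), followed by quantile normalization and log2 (neqc). A probe was tested if 3 or more of the 6 arrays gave it a detection p under 0.05. The 17890 tested probes went into lmFit and eBayes, with Benjamini-Hochberg adjustment across them. The code was tested on simulated data, with spreads drawn from the brighter tested probes. Of 196 probes given a log2 change of 1, 117 (59.7%) were called, 0 of them in the wrong direction, and 9 unchanged probes were called. A probe that was not called is thus not shown to be unchanged. The number of arrays limits the precision.

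Members and lists were chosen with earlier results of these data known. The lists held further S-phase genes, further mitotic genes, cell-cycle gate genes, and markers of myotubes, of undifferentiated and reserve myoblasts and of endothelial and blood cells. Named by rule were, in each role group, the 3 tested genes with the highest mean signal and the 2 largest called changes, all other called members, and from each other list the 3 largest called changes per direction. Gene names are those of the array file, and 32345 probes matched RefSeq (GRCm38.p6), which gave current symbols. Promoter sequences are from RefSeq. Alternatives covered background correction, scaling, the filter, the prior variance, array weights, the replicate number as a block, averaging the probes per gene and each array left out. Python 3.11.15 with pandas 2.3.3 and matplotlib 3.10.9 counted motifs and drew the plots.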

Additional observations from a re-analysis of the deposited data

How the results depend on the processing

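The fall of PARK7 was called in each of 15 alternatives, and the 9 S-phase probes called lower numbered 8 to 10 in each. Among the counts of called member probes, the mitotic probes called higher, 1 as reported, depended most on the setting. They were 5 with quantile normalization and no background correction, 4 with the 75th percentile shift after or without background correction, 0 with no filter on dim probes, 6 with detection p under 0.01 on all arrays, 4 with a trend of the prior variance, 3 with array weights, 2 with averaging of probes per gene and 0 with each array left out, where fewer arrays were compared. Leaving out arrays gave 0 to 1 mitotic probes called lower, 0 to 1 S-phase probes called higher, and 2559 to 5271 calls over all tested probes, where the reported fit gave 5387. With no filter that count was 3519, with 45281 probes tested. The median log2 fold change stayed between -0.35 and -0.05 for S-phase and between 0.07 and 0.19 for mitotic members. With the replicate number as a replicate block, 4350 probes were called in all, and 0 S-phase and 0 mitotic member probes higher. Deviations from the group means of arrays with the same number correlated at 0.054, 0.047 and 0.020, and each array correlated best with its own number, a hint from the data and not from the design. Dim probes near the background, such as MCM3, carry the least certain sizes. The causes of these shifts were not tested.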
